A study of Zea mays with 9 samples.

Results

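The chromatin state of maize root nuclei at the start of a tunicamycin time course was described from the 3 ATAC-seq libraries labelled 0 h, out of 9 libraries in the series. All rows of the deposited table, 38703 gene identifiers, were kept. The plants were seedlings of the inbred line B73, and tunicamycin is named as the agent for every library, the 0 h ones included. Tunicamycin blocks the attachment of N-linked sugars to proteins in the endoplasmic reticulum and so causes misfolding there. Roots were flash frozen, nuclei were isolated, and libraries were made with the Nextera transposase. One label calls the material protoplasts while the source and extraction labels name root. The series calls the libraries biological replicates, and nothing in the labels says whether roots from several seedlings were pooled.

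In ATAC-seq a transposase loaded with sequencing adapters cuts into DNA that is not wrapped in nucleosomes, so that reads collect at open sites. In plants such sites lie mostly just upstream of active genes, at promoters, and at more distant regulatory elements. The maize genome is large, most of it consists of transposable elements, and genes sit between them singly or in small clusters. Gene-poor, repeat-rich chromatin surrounds each centromere.

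The files do not pair the identifiers with gene symbols, and 0 of them were found in the RefSeq gene table used. The genes below are therefore given by identifier, with no function, and the root label could not be checked against marker genes. Values are read coverage summed per gene, taken as read bases because low values pile up on multiples of 73. In the 0 h columns 1802 entries equalled 73, while the 6 whole numbers nearest to it had a mean of 15.2 entries each. Between 16.6% and 19.1% of the values above 0 in a library were exact multiples of 73. Most values were not, so numbers of reads given here are equivalents of that length. Coverage was divided by the library total and is given in ppm of that total, that is, per 1000000 units of coverage. The 3 totals corresponded to between 479384 and 536001 reads of that length, and the median gene held between 10.8 and 12.0 reads.

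Coverage at 0 h was spread broadly over the genes, without a small set of very high ones. It was not divided by the length counted per gene, which is not stated, so a level is not a measure of openness alone. The median gene had 22.4 ppm ± 0.121 (SD, n = 3). In each library between 64.8% and 66.4% of genes lay within 2-fold of that library's median, and between 2.61% and 2.96% exceeded 3 times the median. Taking the mean of the 3 libraries for each gene, the 10th percentile was 7.39 ppm, the 25th 13.5 ppm, the 75th 34.9 ppm and the 90th 48.8 ppm. The 90th percentile was thus 6.60 times the 10th, and the 99th, at 76.1 ppm, was 3.36 times the median.

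It took between 25.7% and 26.3% of the genes to make up 50% of a library's coverage. The 10% of genes with the highest mean held 23.4%, 23.7% and 23.9% of the coverage in replicates 1, 2 and 3, a mean of 23.6% ± 0.228 (SD, n = 3). Those genes were ranked on the same libraries, which favours a high share. Ranked on the other 2 libraries and scored in the one left out, the top 10% held 22.4%, 22.7% and 22.9%, and the top 1% held 3.12%, 3.15% and 3.17%. The lowest 10%, ranked in the same way on other libraries, held 2.16%, 2.07% and 2.01%. The libraries thus differed from each other by less than 1 percentage point in either share, and replicate 1 had the lowest share of the highest genes and the highest share of the lowest.

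**Figure D1:**
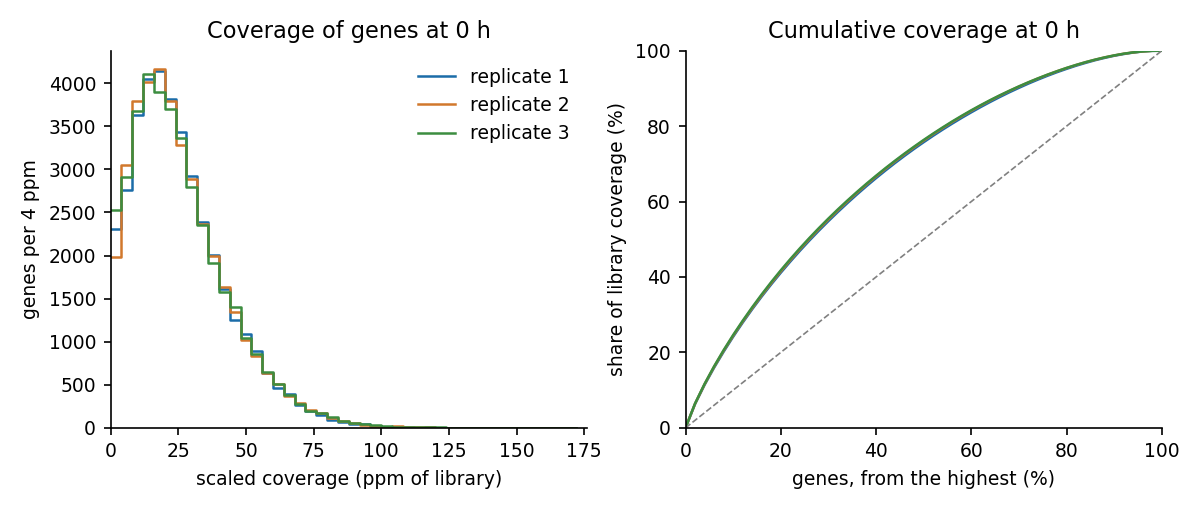
Left, the number of genes (y) in each 4 ppm step of scaled coverage (x, ppm of the library total) for each 0 h library. Right, the share of library coverage (y, %) held by genes counted from the highest (x, %), with a dashed line for equal coverage of all genes. The 3 libraries nearly overlie each other, with 1 peak below the mean of 25.8 ppm and a tail that ends at 173.5 ppm.

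The gene with the highest mean was Zm00001d012401. Its deposited coverage was 6138, 5088 and 6201 in replicates 1, 2 and 3, or 155 ppm ± 8.87 (SD, n = 3), equal to 79.4 reads per library and 6.84 times the median of all genes. Zm00001d000417 came next, with 6789, 4937 and 4790 in the 3 libraries, or 146.8 ppm ± 24.4 (SD, n = 3). The ranges of these genes overlapped, so their order is not settled by the 3 libraries.

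Below them, Zm00001d033126 had 4744, 5071 and 5295, or 135 ppm ± 12.3 (SD, n = 3). The remaining 7 of the 10 highest genes ran from 117 to 124 ppm. Among these, Zm00001d026128 was the steadiest, at 4519, 4213 and 4403, or 117 ppm ± 2.79 (SD, n = 3). Zm00001d007428 was the most variable, at 6166, 2979 and 4227, or 118 ppm ± 36.7 (SD, n = 3), with replicate 1 far above the other libraries. For comparison, the 3 genes nearest the median of all genes, each at 22.7 ppm, differed in how far the libraries agreed. Zm00001d040196 had 936, 730 and 884, an SD of 1.60 ppm (n = 3). Zm00001d045310 had 1012, 787 and 748, an SD of 3.11 ppm (n = 3). Zm00001d012613 had 612, 688 and 1245, an SD of 8.92 ppm (n = 3), with replicate 3 above the others.

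The 3 libraries ranked the genes much alike. Spearman's correlation of coverage over the 38703 genes was 0.838 for replicates 1 and 2, 0.843 for 1 and 3, and 0.838 for 2 and 3. Pearson's correlation of log2(scaled coverage + 1) was 0.758, 0.761 and 0.744 in the same order. Genes are not independent replicates, so these values describe the tables and carry no p-value. The Pearson values depend on how the lowest genes are treated: with a pseudocount of 73 their mean went from 0.754 to 0.836.

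On the linear scale, the covariance between libraries made up 85.1% of the variance among genes within a library. The spread among genes that all libraries shared had a coefficient of variation of 62.8%, against 68.0% in a single library. Of the 3870 genes in a library's highest decile, between 64.2% and 64.8% were also in the highest decile of another library, and 1943 (50.2%) were in that decile in all 3. The lowest decile was shared to a similar degree, with 59.3% to 60.9% between libraries and 1802 genes (46.6%) in all 3. The number of genes in the highest decile of one library and the lowest decile of another was 0 for every choice of libraries. Among the 100 highest genes of each library, 22 were common to all 3.

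**Figure D2:**
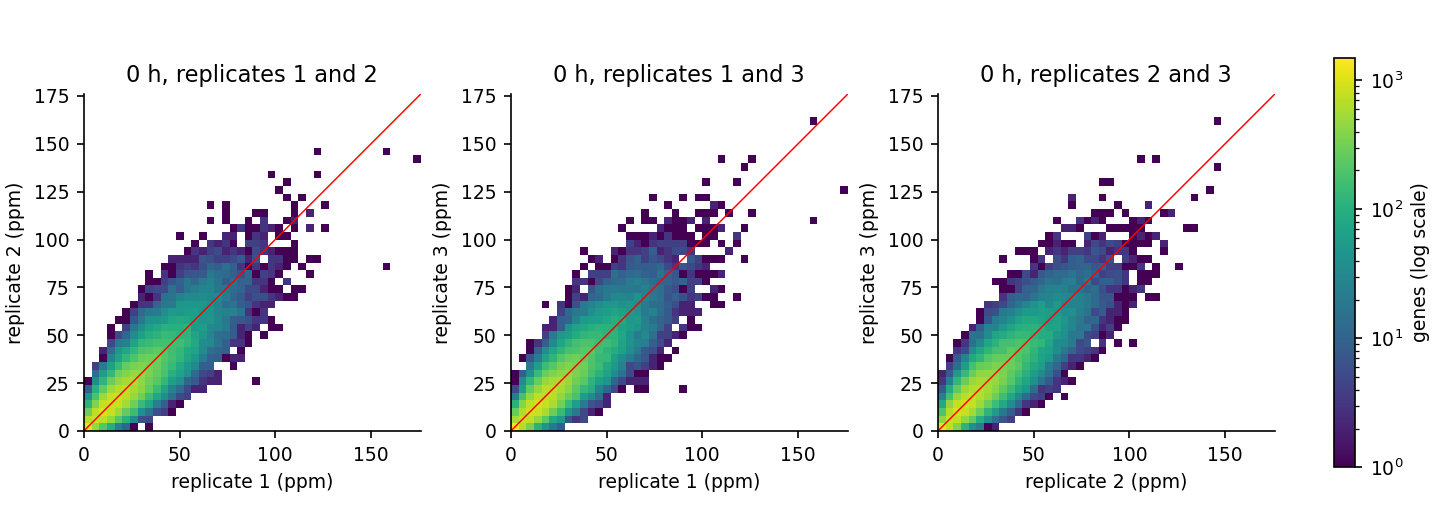
Number of genes (colour, log scale) by scaled coverage in a pair of 0 h libraries (x and y, ppm), in steps of 4 ppm, with a red line for equal values. In each of the 3 pairs the genes form a single cloud around the line, with Spearman correlations of 0.838 to 0.843.

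The relative spread between libraries fell as coverage rose. In the lowest decile of genes by mean, the root-mean-square spread over the libraries was 65.7% of the mean level, where independent full reads would give 68.3%. In the highest decile it was 16.9%, where independent reads would give 17.9%. All 10 deciles lay just under that reference, and the cause was not tested. The reference takes every read at full length. Reads that only partly overlap a counted window would add fewer bases and make it too high, but such reads were not measured. Scatter between the libraries beyond read sampling was not tested. The reference covers counting error only, and copies made in PCR cannot be told from separate molecules.

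A gene's value in a single library was accordingly imprecise unless its coverage was high. In the lowest decile, 73.7% of genes differed 2-fold or more between their highest and lowest library. In the middle of the range, between 18.9 and 22.7 ppm, 23.8% did so, and in the highest decile, above 48.8 ppm, 65 of 3870 genes (1.68%) did.

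**Figure D3:**
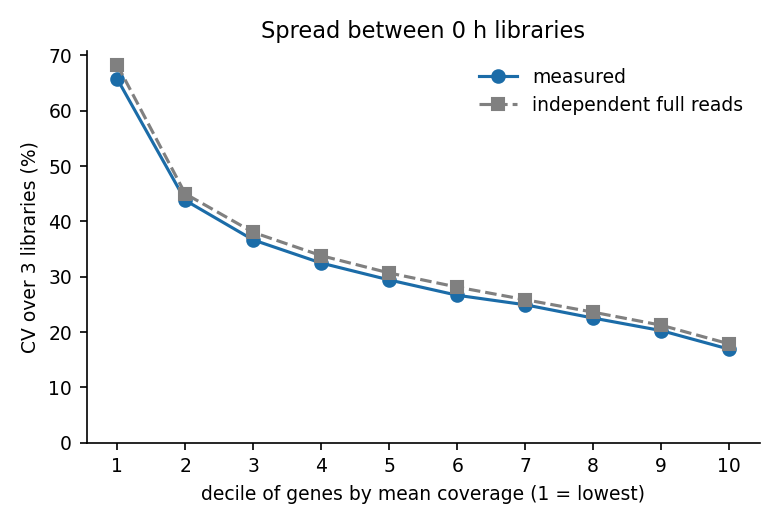
Coefficient of variation over the 3 libraries (y, %) in each decile of genes by mean 0 h coverage (x, 1 being the lowest), as measured (blue) and as independent full reads of 73 bases would give (grey). The measured value falls from 65.7% to 16.9% and stays just below the grey points in all 10 deciles.

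A few genes stood apart from this pattern. Zm00001d015327, on the widest range relative to the square root of its mean, had coverage of 3520, 852 and 803 in replicates 1, 2 and 3. Zm00001d015091 showed the same shape, with 66.8, 28.2 and 20.2 ppm. Both were high in replicate 1 alone, and without it their means went from 45.1 to 22.7 ppm and from 38.4 to 24.2 ppm.

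Replicate 3 was the high library for Zm00001d016805, at 37.0, 45.0 and 94.8 ppm, and for Zm00001d038707, at 54.0, 32.9 and 91.6 ppm. Zm00001d007183 was low in general but had 28.1 ppm in replicate 2 against 6.44 and 1.92 ppm in replicates 1 and 3, and without replicate 2 its mean went from 12.2 to 4.18 ppm. These 5 genes were picked for their spread over all genes, so the values are a description with no test.

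Few of the listed genes were without any coverage at 0 h. Each library had between 536 and 614 genes at 0, and 157 genes (0.406%) were at 0 in all 3. The deposited table holds 0 genes that are at 0 in all 9 libraries, so each of the 157 had coverage in at least 1 library of a later time. Whether genes without coverage in any library were left out is not stated. If they were, the 157 and their share are too low as a count of all genes at 0. Coverage at a later time would then be a condition for being listed, and the times were not compared here. A further 281 genes were at 0 in 2 libraries and had a median of 73, which is 1 read, in the remaining one. For the 713 genes at 0 in 1 library, the median of the mean coverage in the other libraries was 146, or 2 reads.

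Most zeros thus fell on genes whose coverage elsewhere was a few reads. The largest single value of any gene with a 0 in another library was 953. A count of 0 over the 3 libraries together allows a level of up to 1.95 ppm, taking 3 reads as the limit, and this covers counting error only. Coverage of the 157 genes was therefore not detectable at this depth, at a limit far under the median gene.

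Genes with numbers next to a gene at 0 were more often low in coverage than genes in general, though most were not in the lowest decile. Among the 221 genes whose identifier number adjoins that of a gene at 0, 15 (6.79%) were themselves at 0 in all 3 libraries, against 0.406% of all genes. Of the 221 adjoining genes 85 (38.5%) were in the lowest decile, the 15 at 0 among them, and 9 (4.07%) in the highest. Leaving out those at 0, the adjoining genes had a median of 13.8 ppm, against 22.7 ppm for all genes. The number next to a gene at 0 was absent from the table in 29.0% of cases, against 21.9% for all genes. In the order of numbers, Zm00001d002049 and Zm00001d002050 were the first adjoining pair of this kind outside numbers 1 to 458, both at 0 in every 0 h library.

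The level of coverage was partly shared between genes with consecutive identifier numbers. A number followed directly by the next was found for 30212 genes, 78.1% of the table. Over these pairs, Pearson's r of the mean log2 coverage was 0.215. It fell to 0.124 for numbers 2 apart, 0.0645 for 5 apart, 0.0457 for 10 apart and 0.0275 for 100 apart, and was 0.00698 for 1000 apart. The likeness was therefore mostly between nearest numbers, with a weak remainder that was still present at 100 to 200 numbers apart. With the mean of the rows up to 100 away subtracted, r was 0.00687 at 10 apart and -0.0143 at 100 apart. All pairs share the same 3 libraries, and a gene enters up to 2 pairs.

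The likeness was nearly as large between libraries as within them. With a gene's value from one library and its neighbour's from another, r averaged 0.178 over the 6 choices of libraries, and with both from the same library it averaged 0.185. Divided by the mean correlation of 0.754 between libraries for the same gene, the cross-library value at consecutive numbers was 0.236. In each of the 10 long stretches of numbers described below, r of the mean level lay between 0.192 and 0.254. With genes at 0 in any library left out, it was 0.163, and with the mean of the rows up to 100 away subtracted it was 0.181.

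Where a number between 2 genes was absent from the table, the genes on either side were more alike than others 2 numbers apart. Their r was 0.158 over 5786 pairs, and 0.111 over the 23815 pairs whose middle number was in the table. Both values lay below the 0.215 of consecutive numbers. The files do not say what kind of locus the absent numbers stand for.

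Both ends of the range took part in this sharing. After a gene in the highest decile, the next number was also in the highest decile in 636 of 3185 cases (19.97%) and in the lowest in 5.46%. After a gene in the lowest decile, the next was in the lowest in 632 of 2846 cases (22.2%) and in the highest in 5.97%. With no sharing each of these would be near 10%, and at a distance of 1000 numbers they were between 9.15% and 10.7%. The median gene after one in the highest decile had 28.8 ppm, and after one in the lowest decile 17.1 ppm.

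**Figure D4:**
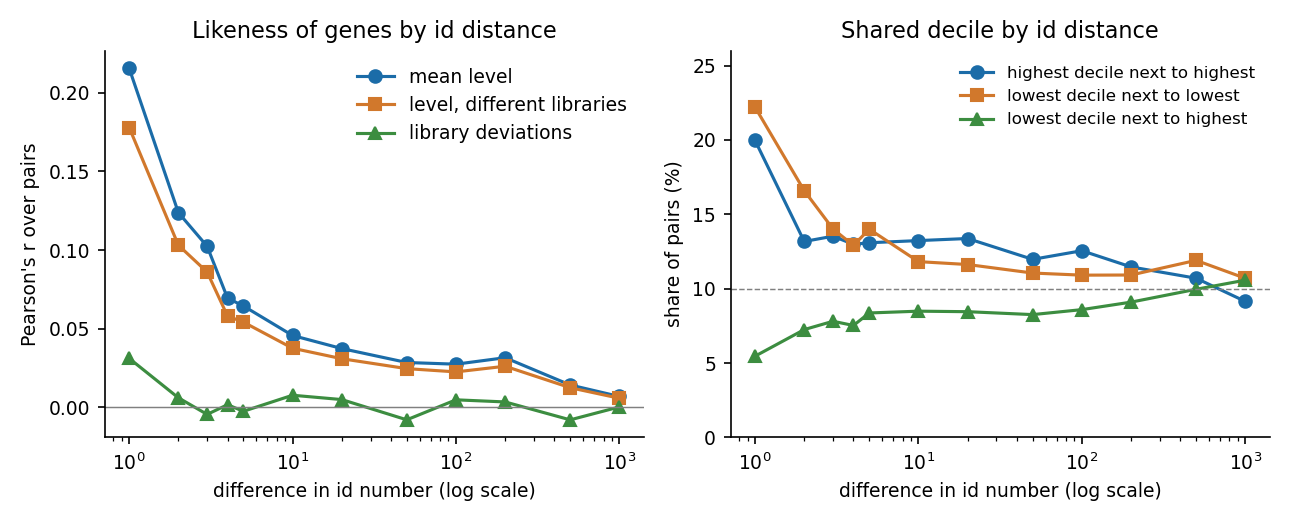
Left, Pearson's r over pairs of genes (y) by the difference in their identifier numbers (x, log scale), for the mean log2 coverage (circles), for values taken from different libraries (squares) and for deviations of single libraries from the gene's mean (triangles). Right, the share of pairs (y, %) in which the second gene is in the named decile, by the same distance, with a dashed line at 10%. The level curves fall from 0.215 and 0.178 at consecutive numbers to under 0.05 at 10 numbers apart, while the deviations start at 0.0312.

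The longest runs were of low genes. The longest run of consecutive numbers in the lowest decile was 7 genes, from Zm00001d012342 to Zm00001d012348. Their mean levels ran from 0 to 4.18 ppm, and Zm00001d012343 in this run was at 0 in every library. The highest single value in the run was 417, at Zm00001d012342 in replicate 1, and without that library the mean of this gene was 0.945 ppm. There were 111 runs of 3 or more genes in the lowest decile and 84 in the highest, but of runs of 2 or more there were 471 and 540.

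In the highest decile the longest runs had 4 genes, and there were 12 of them. In the run from Zm00001d021949 to Zm00001d021952 the mean levels were between 59.9 and 91.4 ppm. Its highest gene, Zm00001d021951, had coverage of 3909, 3042 and 3325, or 91.4 ppm ± 7.38 (SD, n = 3). The lowest value of any gene of that run in any library was 43.8 ppm, above the 75th percentile of 34.9 ppm. Single values went lower in other runs of that length, to 29.3 ppm in replicate 2 in the run from Zm00001d022081 to Zm00001d022084, and to 35.1 ppm in replicate 2 in the run from Zm00001d028745 to Zm00001d028748.

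Deviations of single libraries were also slightly alike in consecutive genes. If a read is counted in both genes of a pair, deviations of a library from the gene's own mean move together in the pair. Anything else in a library that acts on both genes would do the same, and the source was not tested. These deviations had an r of 0.0312 at consecutive numbers, and 0.0299, 0.0290 and 0.0332 in replicates 1, 2 and 3 taken singly. At all larger distances run, r lay between -0.00787 and 0.00778. The value at consecutive numbers was small and differed along the table, running from -0.0015 to 0.0551 over the 10 long stretches. Without the 277 pairs, zeros included, within 1 read of each other in every library, r was 0.0123. Those pairs were picked for having like values in every library, so a lower r without them follows from the choice and does not show a source.

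Exactly equal values above 0 in all 3 libraries were found in 16 of 30212 consecutive pairs (0.053%). At the larger distances run there were between 0 and 3 such pairs. Only 7 of the 16 held at least 10 reads on average. The lowest value among the 16 was 73, or 1 read, and equal values arise more easily at so few reads. The highest was the pair Zm00001d028041 and Zm00001d028042, both with 2144, 1819 and 2577, or 58.1 ppm ± 8.37 (SD, n = 3). Zm00001d006923 and Zm00001d006924 both had 1439, 1592 and 1749. Zm00001d032560 and Zm00001d032561 both had 1314, 1564 and 1241. Whether the genes of such a pair were counted over the same window was not tested.

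Near-equality was also more frequent at consecutive numbers. Among pairs in which both genes held at least 10 reads on average, 72 of 11524 (0.625%) agreed within 1 read in every library. At distances of 2 to 1000 numbers this share was between 0.119% and 0.233%. In 25 places the rows of the table stood in reversed number order by 1, and 2 of those 25 pairs (8%) had identical values above 0, against 0.053% of all consecutive pairs.

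Over long distances, coverage changed along the table. The rows form 10 long stretches in which numbers rise, of 2636 to 5834 genes each, and 298 genes with numbers from 1 to 458 that stand in 69 short runs. The chromosome of each stretch is not given in the files. Cut into deciles by row and taken over all 10 stretches, mean coverage was 27.9 ppm ± 0.0974 (SD, n = 3) in the first decile, fell to 21.8 ppm ± 0.143 (SD, n = 3) in decile 5 and reached 29.7 ppm ± 0.115 (SD, n = 3) in the last. This profile and the ratio below were examined after the data had been seen.

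The dip was the same in every library. Decile 5 had 21.6, 21.9 and 21.7 ppm in replicates 1, 2 and 3, and the last had 29.9, 29.7 and 29.6 ppm, so that the groups of values did not overlap. The middle of a stretch was taken as 40% to 60% of its rows. With genes pooled over the 10 stretches, the first and last deciles together had 1.26 times the mean coverage of the middle. This pooled ratio was 1.27, 1.25 and 1.26 in the 3 libraries (mean 1.26 ± 0.00697, SD, n = 3). That spread is over libraries and does not measure how genes differ.

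With both ends averaged, the ratio of ends to middle was above 1 in all 10 stretches, from 1.04 to 1.52. The last decile was above the middle in 10 stretches and the first decile in 8. The exceptions were the stretch from 48578 to 54112, with 23.6 ppm in its first decile and 24.4 ppm in the middle, and the stretch from 34964 to 39231, with 23.9 and 24.3 ppm. The highest decile of a stretch was its first or last, with exceptions. It was decile 8 in the stretch from 39233 to 44716 (31.4 ppm) and decile 9 in that from 18591 to 22648 (34.6 ppm). In the stretch from 48578 to 54112 it was decile 7 (28.8 ppm). The lowest decile of a stretch was never its first or last and lay between deciles 2 and 6. In all 10 stretches the 3 libraries placed it in the same decile. The lowest value of any decile was in the stretch from number 1763 to 7980, whose decile 5 had 15.9 ppm against 30.8 ppm in its first. The stretch from 48578 to 54112 had the ratio of 1.04, the lowest of the 10, and its lowest decile was decile 4, at 19.1 ppm.

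Both high and low genes changed in share along the stretches, while genes at 0 did not gather in the middle. In decile 5 of the rows 5.23% of genes belonged to the highest decile by coverage and 13.6% to the lowest, while in the last decile of rows these were 14.4% and 7.30%. Genes at 0 in all 3 libraries made up 0.417% of decile 5 of the rows, 0.572% of the first and 0.469% of the last. Whole stretches differed little, with medians from 21.0 to 23.8 ppm. The 298 genes in short runs had a median of 18.5 ppm ± 0.279 (SD, n = 3), and 7 of them (2.35%) were at 0 in all 3 libraries, although Zm00001d000417, the second highest gene of all, was also among them.

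**Figure D5:**
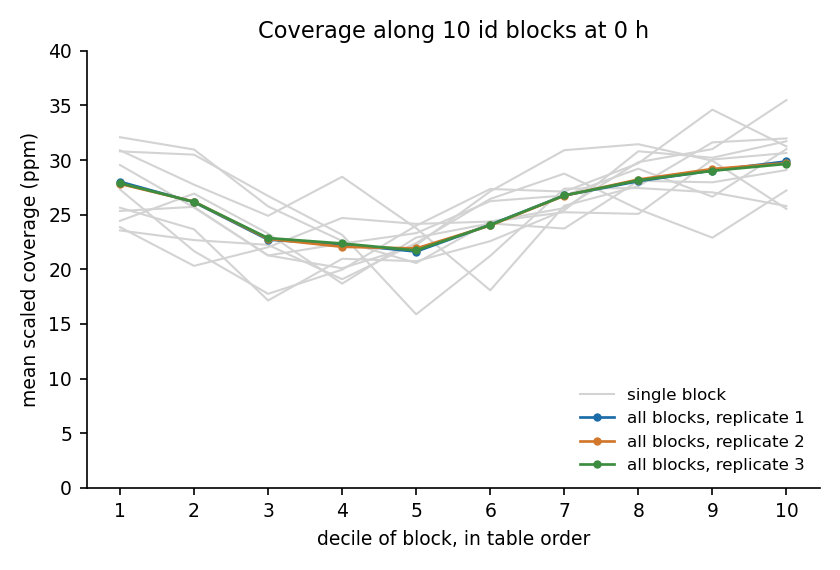
Mean scaled coverage (y, ppm) in deciles of rows (x, in table order) along the 10 long stretches of identifier numbers, as a grey line for each stretch and as a coloured line over all stretches for each 0 h library. The 3 coloured lines overlie each other and fall from about 27.9 ppm to 21.8 ppm in decile 5 before reaching 29.7 ppm.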

How the data were processed

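The authors deposited 1 table of coverage (signal) per gene identifier, whole numbers for 38703 genes. It has 9 library columns and 0 others. The submitters' processing notes name cutadapt 1.11, Bowtie2 2.2.6, MACS2 and DESeq2, with no role or order. No source used here states the build, the window counted around a gene, whether reads were shifted for the transposase, or whether PCR copies and organellar reads were removed. Each could change the values. A wide window dilutes open sites with closed chromatin, and overlapping windows count a read more than once.

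From these values, the 3 columns at 0 h were each divided by their total and expressed per 1000000 units of coverage (ppm). Log2 values used a pseudocount of 1 on coverage scaled to the mean total. Because the unit is coverage and a single group was used, no count model and no test was run. Calculations used Python 3.11.15, numpy 2.4.6, pandas 2.3.3 and scipy 1.17.1, and were tested on simulated coverage. Neighbours were genes of consecutive identifier numbers. A new stretch began where the number went back by more than 1 or jumped by over 100, and stretches of 1000 or more genes were kept.

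Named genes were the 10 highest, those at 0, the highest identical pairs, the widest ranges, the longest runs and the genes at the median, and the text gives a subset. Planned lists of gene symbols and marker genes were not used, since 0 identifiers matched a symbol, and no sequence was read for the same reason. Members and rules were chosen with earlier results of these data known. Alternatives covered scaling (trimmed mean of M values with 30% of ratios and 5% of levels trimmed, or the median of ratios), pseudocounts, low genes, neighbour rules and leaving out each library.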

Additional observations from a re-analysis of the deposited data

How the results depend on the processing

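No paired analysis was possible because the results come from 1 group and from no test. Scaling by the trimmed mean of M values left the mean correlation between libraries at 0.754, and with it or the median of ratios the 56 named genes with coverage moved by at most 0.28%. Leaving out a library moved 12 of those 56 by over 1.5 times, of which 2, Zm00001d015327 and Zm00001d015091, held at least 10 reads on average. The share of the top 10% of genes (23.6%) was 22.7% when ranked on other libraries and 23.1% over genes covered in all 3. Sets of 1%, 5% and 20% held 3.34%, 13.4% and 40.4%, and leaving out each library gave 23.7% to 24.0%.

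The correlation between libraries (0.754) was 0.7003 with a pseudocount of 0.1, 0.807 with 10, 0.836 with 73, 0.791 over genes covered in all 3 libraries and 0.840 by Spearman, and 0.744 to 0.761 leaving out each library. The dispersion, which is the summed squared difference between libraries over the summed coverage, was 66.6, and 65.7 to 67.5 leaving out each library. Genes at 0 numbered 157, and 245 to 261 without each library, where fewer libraries had to be at 0, and 235 with under 1 read in each library.

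The level correlation of consecutive numbers (0.215) was 0.203 for the next row in number order, 0.178 between libraries, 0.206 with a pseudocount of 73, 0.163 over genes covered in all 3 libraries, 0.181 after the local mean was subtracted, and 0.203 to 0.209 leaving out each library. At 2, 5, 10, 50 and 100 numbers apart it was 0.124, 0.0645, 0.0457, 0.0286 and 0.0275. For deviations (0.0312) the same distances gave 0.00615, -0.00243, 0.00778, -0.00784 and 0.00486, the next row gave 0.0214, the square-root scale 0.0271, pairs over 1 read apart 0.0123, and leaving out each library 0.0287 to 0.0335. Identical pairs numbered 16, 22 to 23 without each library, and 199 when values above 0 within 1 read of each other in every library were counted. The ratio of ends to middle (1.26) was 1.28 by medians, 1.22 with a middle of 30% to 70%, 1.23 with ends of 20%, and 1.25 to 1.26 leaving out each library. Except where fewer libraries, other distances or set sizes define the value, the cause was not tested. The local mean, the removal of near-equal pairs, the ratio of ends to middle and the dispersion without each library were added after seeing the data. The median gene's 10.8 to 12.0 reads per library limits the precision of single genes.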
